A study of Homo sapiens with 3 samples.

Results

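The ABC drug-efflux transporters ABCB1, ABCG2, ABCC1, ABCC2, ABCC3, ABCC4 and ABCC5 were examined in spheres of a human osteosarcoma line under 3 culture conditions. The 7 genes were listed by name, and 6 of them were found among the 14836 named genes of the deposited table. ABCG2 was not found by name and was not analysed here. ABCC5 was read by 2 array features, each for 1 RefSeq transcript, and each of the other 5 genes by 1 feature.

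The cells were MNNG/HOS, made from the osteosarcoma line HOS by treatment with a chemical carcinogen. All 3 cultures grew without serum in DMEM/F12 as sarcospheres, spheres of tumour cells, and were taken on day 5. The untreated culture received no addition, the second received TGF-beta1 at 4 ng/mL, and the third was kept under hypoxia, at an oxygen level that the labels do not state. Total RNA of each culture was labelled with Cy3 and read on 1 NimbleGen array, so each condition is 1 sample of 1 line. There was no replicate error and no test across samples was possible, so higher and lower describe these 3 arrays, and the number of arrays limits the precision.

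ATP-binding cassette (ABC) transporters use ATP to carry substrates across membranes, and the members studied here move drugs, drug conjugates and signalling molecules out of the cell. ABCB1 (P-glycoprotein) exports large hydrophobic drugs such as doxorubicin, and it is a long-studied resistance factor in osteosarcoma. The ABCC members (multidrug resistance proteins) export organic anions, including glutathione and glucuronide conjugates, and methotrexate is a substrate of several of them. Sphere cultures are often examined for efflux pumps, because pump activity is one of the traits used to mark stem-like tumour cells.

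Most measured markers of the labelled cell type were at or above the median gene value, and the measured markers of other cell types were dim. Of 7 measured osteosarcoma and mesenchymal markers, RUNX2, SPARC, COL1A1, VIM and CD44 were at or above the median gene value on all 3 arrays, while the osteoblast markers SP7 and ALPL stayed between 63.4 and 81.8. COL1A1 was lower under hypoxia, at 959 against 1715 untreated. The summed intensity of this list was 39244 on the untreated array, 43090 on the TGF-beta1 array and 41060 on the hypoxia array. VIM alone gave 29664 of the untreated sum. None of the 5 measured markers of hepatocytes, enterocytes and kidney tubules reached the median gene value on any array, with sums between 369 and 485. The same held for 3 of 5 listed blood and immune markers (sums of 168 to 209), 2 of 5 endothelial (183 to 260) and 3 of 4 epithelial markers (384 to 528). The others of these lists were not found by name, among them ALB, PTPRC, CD3E, CDH5, VWF, TEK and CDH1, so their levels are not known.

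ABCC3 was the member with the widest spread over the 3 conditions, at 1324 untreated, 244 with TGF-beta1 and 2702 under hypoxia. The TGF-beta1 array was thus the lowest and the hypoxia array the highest. ABCC3 encodes MRP3, which exports glucuronide conjugates, bile salts and etoposide, in polarised cells across the basolateral membrane. Its level was 5.43-fold lower with TGF-beta1 than untreated (log2 difference -2.44) and 2.04-fold higher under hypoxia (log2 difference 1.03). Between the 2 treated cultures it differed 11.1-fold (log2 difference -3.47). All named genes were ranked by mean level and divided into 5 brightness groups of equal size, and ABCC3 lay in group 4. In that group, features of 1 gene disagreed with an SD of 0.29 in the log2 difference of TGF-beta1 minus untreated and of 0.35 in hypoxia minus untreated. These SDs come from 276 genes with several features, and they leave out the variation between cultures.

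**Figure D1:**
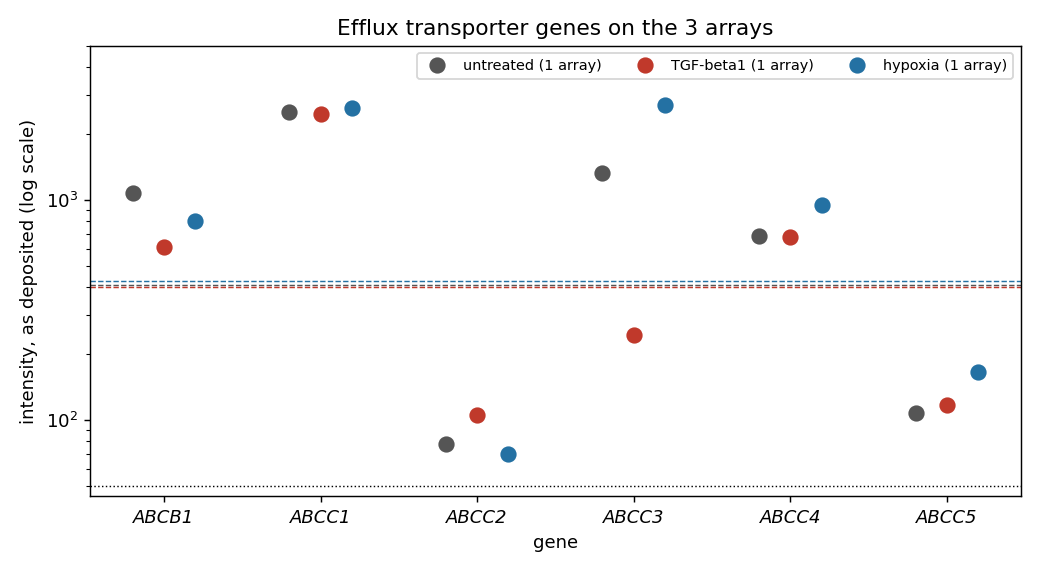
Deposited intensity (log axis) of the 6 measured efflux genes on the untreated, TGF-beta1 and hypoxia arrays, 1 point per array. Dashed lines give each array's median gene value and the dotted line the lowest value of the table, 50. ABCC3 goes from 244 with TGF-beta1 to 2702 under hypoxia, ABCC1 lies between 2444 and 2604 on all arrays, and ABCC2 and ABCC5 lie below the medians.

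Few genes of similar level differed as far as ABCC3. In its brightness group of 2967 genes, 2 others were as far or farther lower with TGF-beta1 (0.0674%), 31 others as far or farther higher under hypoxia (1.05%), and 1 other as far or farther lower in TGF-beta1 minus hypoxia. Over all named genes these counts were 21, 380 and 4. On the TGF-beta1 array ABCC3 was brighter than 40.9% of named genes, against 74.6% on the untreated and 87.0% on the hypoxia array. The value of 244 was below that array's median gene value of 402, where features of 1 gene disagree more (an SD of 0.50 in the next lower brightness group).

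ABCB1 was the other member that differed with TGF-beta1. Its feature stood at 1075 untreated, 608 with TGF-beta1 and 801 under hypoxia, so the untreated array was the highest. The level was 1.77-fold lower with TGF-beta1 (log2 difference -0.82) and 1.34-fold lower under hypoxia (-0.42). The second value is close to the SD of 0.35 between features of 1 gene at this brightness. In its brightness group, which is that of ABCC3, 5.16% of other genes were as far or farther lower with TGF-beta1 and 11.2% under hypoxia, so differences of this size were common on these arrays. ABCB4, a close paralog of ABCB1, was not found by name in the table, and whether the probes of ABCB1 also read it was not tested.

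The RefSeq promoter table of GRCh38.p14 held windows for 5 of the 7 genes (ABCB1, ABCC2, ABCC4, ABCC5 and ABCG2). ABCC3 and ABCC1 had none. ABCB1 was the only member with windows that differed by 1.5-fold above the array medians, so the 250 bases before its 2 annotated starts are printed 5′ to 3′ on the minus strand. The first is chr7:87600885-87601134 and the second chr7:87713296-87713545. Which start was used in these cells is not known from the arrays. Capitals mark matches on either strand to 5 motifs: the core bound by HIF in its form ACGTG and its form GCGTG, the SMAD box CAGAC, the CCAAT box, and the GC box GGGCGG.

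ABCB1, downstream start: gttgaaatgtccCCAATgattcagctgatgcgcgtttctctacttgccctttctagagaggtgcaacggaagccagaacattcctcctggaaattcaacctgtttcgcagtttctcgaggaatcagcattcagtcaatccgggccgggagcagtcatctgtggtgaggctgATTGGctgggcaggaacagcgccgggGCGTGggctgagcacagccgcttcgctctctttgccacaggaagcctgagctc

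ABCB1, upstream start: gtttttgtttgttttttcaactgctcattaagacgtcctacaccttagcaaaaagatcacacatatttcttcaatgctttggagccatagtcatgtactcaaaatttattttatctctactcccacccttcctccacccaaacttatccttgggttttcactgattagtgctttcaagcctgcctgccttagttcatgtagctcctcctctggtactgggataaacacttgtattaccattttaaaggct

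The downstream window of ABCB1 held CCAAT directly at bases 238 to 234 before the start and inverted at bases 79 to 75, and GCGTG at bases 53 to 49. It held no other of the motifs, and the upstream window held none of the 5 motifs. Over the 35116 windows of the table, 32.0% held the CCAAT box on either strand, 32.2% the HIF core GCGTG, 18.5% the HIF core ACGTG, 38.0% the SMAD box and 42.6% the GC box. ABCC4 had GCGTG in both orientations, ABCC5 had a SMAD box and a GC box, and ABCC2 had no match. The ABCG2 windows were not considered, since ABCG2 has no level here. Matches of this kind are frequent in any promoter, and they are given as descriptions.

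ABCC1 had nearly the same level in all 3 conditions, at 2492 untreated, 2444 with TGF-beta1 and 2604 under hypoxia. It encodes MRP1, a broadly expressed exporter of glutathione conjugates and of anthracyclines together with glutathione. Its range over the 3 arrays was 1.07-fold, less than that of 7956 of the 8158 genes that reached the median gene value on at least 1 array. Every log2 difference of ABCC1 (-0.03, 0.06 and -0.09) was smaller than the SD between features of 1 gene in its brightness group, which was 0.18, 0.28 and 0.31 in TGF-beta1 minus untreated, hypoxia minus untreated and TGF-beta1 minus hypoxia.

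ABCC4 stood at 684 untreated, 675 with TGF-beta1 and 943 under hypoxia. It encodes MRP4, which exports cyclic nucleotides, prostaglandins, nucleoside analogues and methotrexate. The hypoxia value was above the other two, by 1.38-fold against untreated (log2 difference 0.46) and by 1.40-fold against TGF-beta1 (TGF-beta1 minus hypoxia, -0.48). In its brightness group, 13.9% of other genes were as far or farther higher under hypoxia, and the difference did not reach 1.5-fold. For TGF-beta1 minus untreated its log2 difference was -0.02.

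The remaining members were dim. ABCC2, the canalicular exporter MRP2 of hepatocytes, stood at 77.7 untreated, 105 with TGF-beta1 and 69.7 under hypoxia, against a lowest table value of 50. With no detection calls in the table, whether these values exceed background is unknown. ABCC5 encodes MRP5, an exporter of cyclic nucleotides and nucleotide analogues, and its 2 features gave a mean of 108 untreated, 117 with TGF-beta1 and 165 under hypoxia. The feature NM_001023587 stood at 174, 136 and 207 on the untreated, TGF-beta1 and hypoxia arrays, and NM_005688 at 66.8, 101 and 132. They differed in opposite directions with TGF-beta1 (log2 differences -0.36 and 0.59) and in the same direction under hypoxia (0.25 and 0.98). ABCC5 thus had no settled direction with TGF-beta1. Its difference of 0.62 under hypoxia is a mean of 2 features. Single features of 1 gene at its brightness disagreed with an SD of 0.56, and a mean of 2 varies less than that.

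A gene was called higher or lower where 2 arrays differed by at least 1.5-fold and the brighter one was at or above its median gene value (410 untreated, 402 with TGF-beta1 and 427 under hypoxia). With TGF-beta1, 2 of the 6 measured members were called lower, ABCB1 and ABCC3, and 0 higher. Over all named genes 6.15% were called lower and 6.73% higher, and with the arrays centred on their medians 4.95% and 8.51%. The median log2 difference of the 6 members was -0.02 (0.05 with median centring, the other sign), against -0.00285 over all named genes. Under hypoxia ABCC3 was called higher and 0 members lower, against 4.56% and 3% of all named genes (3.74% and 3.79% with median centring). The members' median was 0.26, against 0.04 over all named genes.

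In TGF-beta1 minus hypoxia, ABCC3 was called lower and 0 members higher, beside 8.18% and 7.06% of all named genes (6.03% and 10.2% with median centring). The members' median was -0.44, against -0.03. This comparison shares its arrays with the other comparisons and is no separate observation. At a threshold of 2-fold ABCC3 was the only measured member called in any comparison. The background at that threshold was 2.07% lower and 1.74% higher for TGF-beta1 minus untreated, 0.87% higher and 0.519% lower for hypoxia minus untreated, and 3.07% lower and 1.75% higher for TGF-beta1 minus hypoxia. With 6 members, counts of 1 or 2 say little about the group, and the values of ABCC3 itself carry the result.

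**Figure D2:**
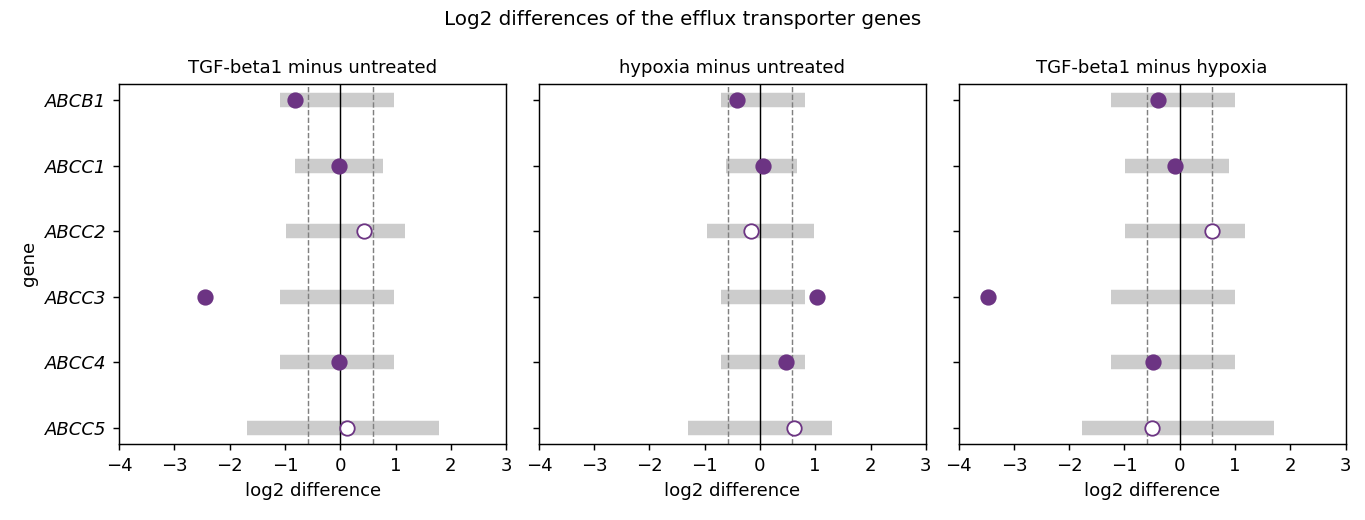
Log2 difference of each measured member in the 3 comparisons, with 1 array per condition. Filled points have a brighter array at or above its median gene value, open points do not. Grey bars span the central 95% of named genes in the same brightness group, and dashed lines mark 1.5-fold. ABCC3 lies outside its bar in all 3 comparisons (-2.44, 1.03 and -3.47), and the other members lie inside theirs.

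The order of the 3 levels was hypoxia above untreated above TGF-beta1 for ABCC1, ABCC3 and ABCC4, although both steps of ABCC1 and the step of ABCC4 between untreated and TGF-beta1 were within the disagreement of features. This order held for 21.5% of all named genes and for 11 of 31 other ABC genes. ABCB1 had untreated above hypoxia above TGF-beta1, ABCC5 hypoxia above TGF-beta1 above untreated, and ABCC2 TGF-beta1 above untreated above hypoxia. The orders of ABCC1, ABCC4 and ABCC5 depend on the processing. With median centring ABCC1 (0.05) and ABCC4 (0.06) were higher with TGF-beta1 than untreated, as was ABCC4 with quantile normalization (0.0073), and with its brightest feature alone ABCC5 was lower with TGF-beta1 (-0.36).

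The genes nearest to each member in pattern were found from log2 values minus the gene's mean over the 3 arrays, by Euclidean distance over 8158 genes. CXCR4, the receptor of the chemokine CXCL12, was nearest to ABCC3 at a distance of 0.07, with 745 untreated, 139 with TGF-beta1 and 1624 under hypoxia. GLDN (gliomedin) followed at 0.15, with 987, 158 and 1931. They were the only 2 genes within 0.25 of ABCC3, while 342 genes lay that near to ABCB1, MED13 among them with 3779, 2157 and 2809 on the untreated, TGF-beta1 and hypoxia arrays. For ABCC2 the nearest genes were UTP11 and TLNRD1, with 1184 genes within 0.25, and for ABCC5 CHMP2A and OAZ2, with 762. The number of near genes depends on how wide a gene's range is. Of the 8158 genes, 10 had a wider range than ABCC3 and 1791 a wider range than ABCB1. The counts therefore do not compare how common the shapes of the patterns are. A likeness over 3 points is a description of these arrays.

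**Figure D3:**
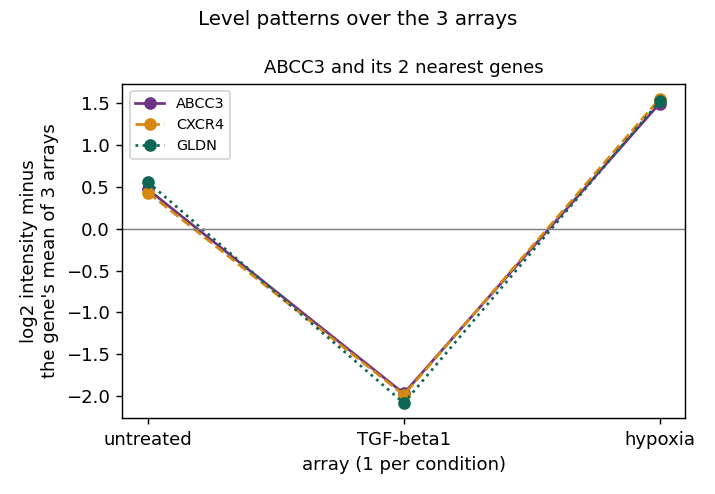
Log2 intensity minus the gene's own mean on the 3 arrays, for ABCC3 with CXCR4 and GLDN, 1 array per condition. ABCC3 and its 2 nearest genes lie lowest with TGF-beta1 and highest under hypoxia, with distances of 0.07 and 0.15.

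Among the other ABC genes, 31 of 41 were measured, and ABCC3 had the widest range of all 37 ABC genes. The next widest ranges were those of ABCB10 (3.11-fold), ABCB6 (2.05-fold) and ABCA3 (1.99-fold). ABCB10 and ABCA3 were below the median gene value on every array. With TGF-beta1, 2 of the 31 others were called higher and 1 lower, beside 6.73% and 6.15% of all named genes. ABCB6, a mitochondrial and plasma membrane porphyrin transporter, stood at 1331 against 650 untreated (log2 difference 1.03). ABCE1, a ribosome recycling factor with ABC domains but no transport role, stood at 966 against 642 (0.59), and ABCF2, another ABC protein without membrane spans, at 348 against 543 (-0.64). The calls of ABCE1 and ABCF2 lay at the threshold. ABCE1 was no longer called with loess centring (0.56), nor ABCF2 with median centring or quantile normalization (-0.57 in both).

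Under hypoxia 1 of the 31 others was called higher and 0 lower, beside 4.56% and 3% of all named genes. The 1 called was ABCE1, at 1061 against 642 (log2 difference 0.72). The median log2 difference of the other ABC genes was -0.14 with TGF-beta1 and 0.18 under hypoxia, beside -0.00285 and 0.04 over all named genes. For TGF-beta1 minus hypoxia 6 of the 31 others were called lower and 1, ABCB6, higher (log2 difference 0.86), beside 8.18% and 7.06% of all named genes. The lower ones were ABCA1 (-0.70), which exports cholesterol to apolipoprotein A-I, ABCA7 (-0.75), the peptide transporter subunit TAP1 (-0.68), ABCC10 (-0.70), the peroxisomal half-transporter ABCD3 (-0.63) and the sterol exporter ABCG1 (-0.81). With median centring, which raised the median of all genes in this comparison by 0.12, the count was 2, ABCA7 and ABCG1, in place of 6, beside 6.03% of all named genes. Of the other ABC genes at or above the median gene value, ABCA2, ABCB9 and ABCD4 stayed within 1.5-fold of untreated. ABCA2 stood at 3153 untreated, 4151 with TGF-beta1 and 4006 under hypoxia, and ABCB9 at 491, 345 and 351. ABCD4 stood at 1796 untreated and 2153 under hypoxia.

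**Figure D4:**
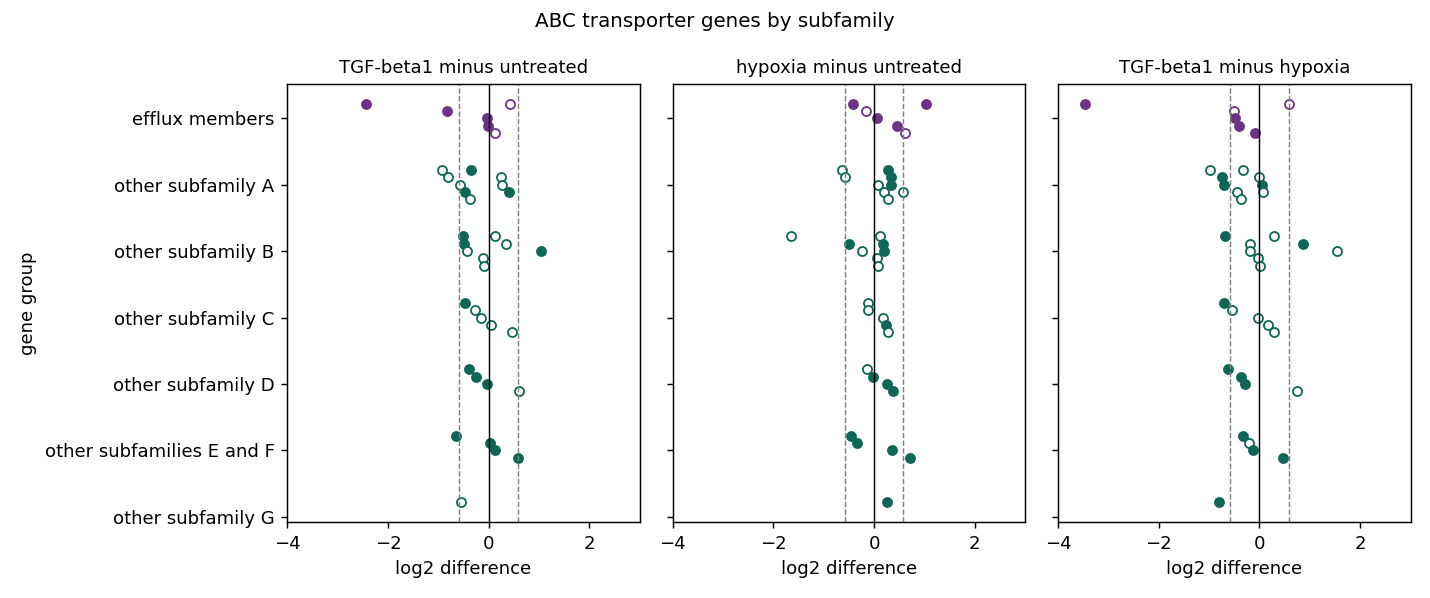
Log2 differences of the measured ABC genes by subfamily in the 3 comparisons, 1 point per gene and 1 array per condition. Filled points have a brighter array at or above its median gene value, open points do not, and dashed lines mark 1.5-fold. Among filled points ABCC3 lies farthest from 0 in all 3 comparisons (-2.44, 1.03 and -3.47). In hypoxia minus untreated the open point of ABCB10 lies farther from 0, at -1.64. In TGF-beta1 minus untreated ABCB6 (1.03) is the filled point farthest right.

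Transcription factors known to act on efflux genes, listed together with the NRF2 inhibitor gene KEAP1, had 11 of 12 members measured. The xenobiotic receptor gene NR1I2 was not found by name, and its relative NR1I3 stayed between 67.0 and 88.7. With TGF-beta1, 3 of the 11 were called lower and 0 higher, beside 6.15% and 6.73% of all named genes. The median log2 difference of the list was -0.30, against -0.00285. The aryl hydrocarbon receptor gene AHR stood at 348 against 575 untreated (-0.72), FOXO3 at 4212 against 6786 (-0.69), and RXRA, the partner of the xenobiotic receptors, at 901 against 1433 (-0.67). Under hypoxia 1 of the 11 was called higher and 0 lower, beside 4.56% and 3% of all named genes. The median log2 difference of the list was -0.000451, against 0.04 over all named genes. The 1 called was EPAS1, which encodes HIF-2alpha, at 1654 against 539 (log2 difference 1.62). KEAP1 stood at 2939 against 2001 (0.55). HIF1A stood at 1620, 1469 and 1619 on the untreated, TGF-beta1 and hypoxia arrays. NFE2L2, the NRF2 gene that drives ABCC genes in oxidative stress, stood at 3522, 2790 and 2974, all within 1.5-fold. AHR was also called lower under hypoxia with loess centring (-0.60) and quantile normalization (-0.59), from -0.53 as deposited.

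A list of glutathione synthesis genes, glutathione transferases and other detoxifying enzymes, some of which make substrates of the ABCC pumps, had 17 of 19 members measured. Under hypoxia 14 of the 17 were brighter than untreated, where 7965 of all 14836 named genes were, and the median log2 difference was 0.39 against 0.04. GCLC, GSTM2, GSTM3, GSTA4 and GSTT2, which are 5 of the 14, were below the median gene value. MGST3 was called higher, at 1997 against 1105 (0.85), and 1 call in 17 is near the share of 4.56% over all named genes. MGST2 was at 1599 against 1091 (0.55). With TGF-beta1 the median was -0.09, against -0.00285 over all named genes. Of the 17, 1 was called higher and 2 lower, beside 6.73% and 6.15% of all named genes. GSTO1 was the higher one, at 3279 against 1940. GSTK1 (577 against 1008) and the sulfotransferase gene SULT1A1 (436 against 707) were the lower ones. SULT1A1 has near-identical copies, and its features may also read those. Whether features of the GSTM genes or of other genes of the list also read related genes was not tested. In TGF-beta1 minus hypoxia 5 of 17 were called lower and 0 higher, beside 8.18% and 7.06% of all named genes, and the median was -0.57 against -0.03. They were GSTK1 (-0.64), MGST2 (-0.65), MGST3 (-1.02), SULT1A1 (-1.16) and the quinone reductase gene NQO1 (-0.73). With median centring 3 were lower and 1, GSR, higher (0.62), beside 6.03% and 10.2%.

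Drug uptake carriers, which work against the pumps, had 10 of 19 members measured, of which 3 were bright enough to be called. With TGF-beta1 1 of the 10 was called higher, beside 6.73% of all named genes, and under hypoxia 2, beside 4.56%. SLCO4A1, an organic anion carrier, was called higher with TGF-beta1 (1599 against 823 untreated, log2 difference 0.96) and under hypoxia (1897, log2 difference 1.21). SLC31A1, a copper carrier that also takes up cisplatin, stood at 282 untreated, 409 with TGF-beta1 and 576 under hypoxia. It was called higher under hypoxia (1.03), and with TGF-beta1 it was below 1.5-fold as deposited (0.54) and above it with median centring (0.61), quantile normalization (0.62) and loess centring (0.59). SLC19A1, the reduced folate carrier for methotrexate, was not found by name. Of the 4 measured genes of efflux or sequestration outside the ABC family, MVP, the major vault protein, was the one at or above the median gene value, at 1401, 1209 and 1444 on the untreated, TGF-beta1 and hypoxia arrays.

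Scaffold genes that hold efflux pumps at the membrane had 7 of 7 members measured. With TGF-beta1, CAV1 (caveolin) was called lower at 425 against 766 untreated (log2 difference -0.85) and NHERF2 at 1803 against 2907 (-0.69), and 0 were higher, beside 6.15% and 6.73% of all named genes. The median of the list was -0.49, against -0.00285. Under hypoxia 1 of the 7 was called higher, beside 4.56%. This was EZR (ezrin), at 10294 against 6547 (0.65), and MSN (moesin) stood at 4153 against 6073 (-0.55), which was past 1.5-fold with median centring (-0.59). The levels of the partner genes are given side by side with those of the pumps, and a relation between them was not tested.

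**Figure D5:**
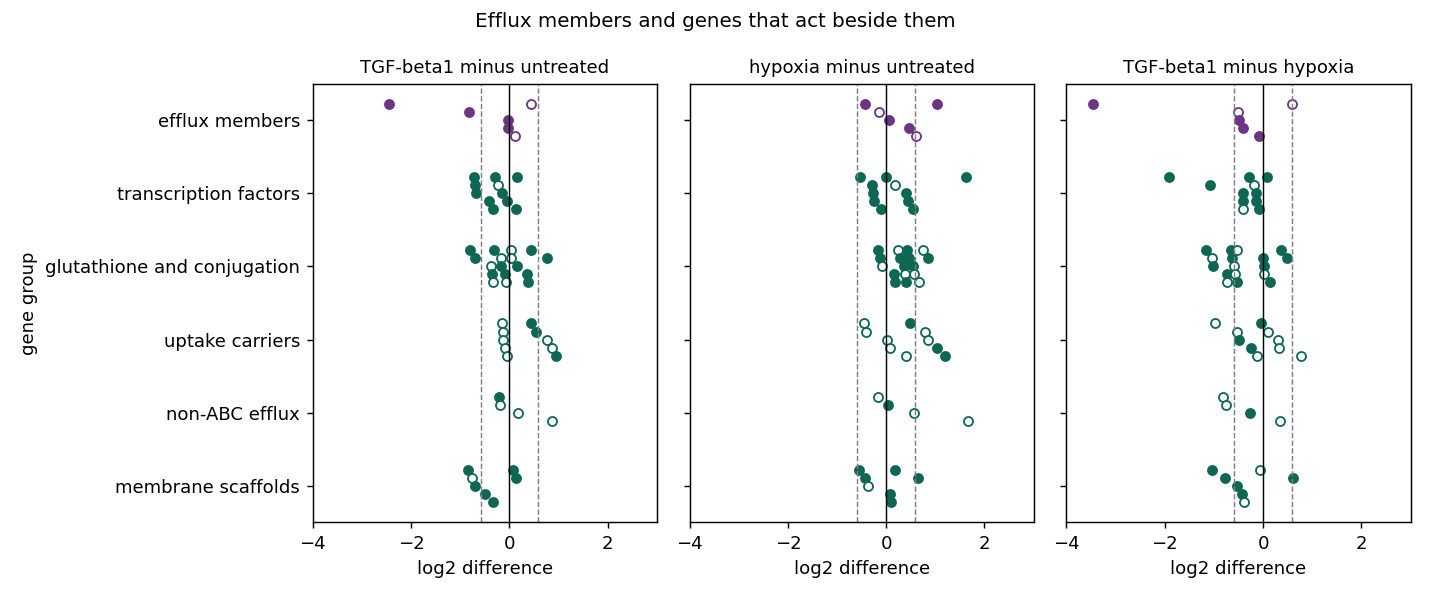
Log2 differences of the efflux members and of 5 lists of genes that act beside them in the 3 comparisons, 1 point per gene and 1 array per condition. Filled points have a brighter array at or above its median gene value, open points do not, and dashed lines mark 1.5-fold. Under hypoxia most points of the glutathione list lie right of 0 (14 of 17). In the transcription factor list, which also holds KEAP1, EPAS1 (1.62 under hypoxia) is the filled point farthest right.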

How the data were processed

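The series' value table was used, with the authors' intensity values of 3 one-colour arrays (deposited on a linear scale, 38572 features). The labels do not state the background correction, the summary of probes or the normalization, and the values were taken as already normalized, since the array medians were 383, 363 and 395. No value was below 50, and the labels do not state whether this is a set lower limit. If it is, folds of dim genes are understated. Features were named from the platform annotation with symbols updated by Entrez identifier (15623), then by unversioned RefSeq accession against GRCh38.p14 (593), and 22356 were left out as unnamed. A gene's value was the mean log2 over its features, with no pseudocount. Loess centring used statsmodels 0.14.6 with a span of 0.3, and tables were handled in pandas 2.3.3. The calling code was checked on a copy of the untreated array with exact folds added to bright genes. No noise was added, so this checks the code and not the error of the calls.

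The members, the gene lists and the thresholds were chosen with earlier results of these data known. Named are the members, the 2 largest differences per list in each comparison with the untreated array among genes above the floor (the brighter array at or above its median gene value), and the 2 genes nearest in pattern to each member that differed by 1.5-fold. A few items that this rule picks are not reported here. RXRA, SULT1A1, NQO1, GSR, NR1I3, HIF1A, NFE2L2, GCLC, GSTM2, GSTM3, GSTA4, GSTT2, ABCB10 and ABCA3, and marker genes given by name other than by this rule, were named after their values were seen. Alternatives were another gene value, another scaling, an offset, no floor and a 2-fold call.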

Additional observations from a re-analysis of the deposited data

How the results depend on the processing

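ABCC3 was called in the same direction in all 3 comparisons under every alternative tried. Its log2 difference ranged from -2.46 to -2.23 for TGF-beta1 minus untreated, from 0.98 to 1.03 for hypoxia minus untreated and from -3.47 to -3.23 for TGF-beta1 minus hypoxia. ABCB1 ranged from -0.85 to -0.74 with TGF-beta1 and was not called at 2-fold, which left 1 member called lower there. Without the floor on dim genes, 2 members were called higher under hypoxia, since ABCC5 joined ABCC3, and 1 member, ABCC2, in TGF-beta1 minus hypoxia. Over all named genes 11.2% and 13.5% were then called in these directions. For TGF-beta1 minus untreated, ABCC1 (-0.10 to 0.05), ABCC4 (-0.05 to 0.06) and ABCC5 (-0.36 to 0.25) changed sign with the setting, as did the members' median (-0.19 to 0.05), and none of these was called. Signal over background limits ABCC2 and ABCC5, and with 1 array per condition no replicate could be left out. No paired analysis was possible because each condition has 1 array.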
